A study of Solanum lycopersicum with 2 samples.

Results

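The cells described here are the suberizing exodermis cells of the tomato root, chosen by their transcripts of SlASFT (Solyc03g097500), a feruloyl transferase gene. A cell was a member if it held at least 2 UMIs (unique molecular identifiers, barcodes that let each captured transcript molecule be counted once) of SlASFT and at least 1 UMI over 7 further suberin biosynthetic genes. Cells were kept for this choice if they held at least 500 UMIs and no more than 1% of their UMIs from plastid or mitochondrial genes. Of 22634 kept cells, 291 were members, 63 of 12403 in replicate 1 and 228 of 10231 in replicate 2. All other kept cells of the same library served as the comparison.

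The series consists of 2 single-cell libraries of protoplasts, cells released from their walls by enzymes, made with droplet-based 3′ transcript counting. Both libraries came from wild-type seedlings of cultivar M82, from the terminal 3 cm of the root at 7 days after sowing, and both had been protoplasted, so they formed 1 group and no treatment was compared with another. The libraries held 12481 and 10253 barcodes and 187215851 and 81175339 UMIs, with 38 barcode sequences in common and none of them common to the members of both. Nothing in the labels said that the libraries came from separate sets of plants. The tests below took the library as a block. Their p-values measure only how far differences between cell populations varied across these 2 libraries, with estimates of spread shared across genes.

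Suberin is a polyester of long-chain fatty acid derivatives, glycerol and ferulate that is laid down between the plasma membrane and the primary wall and limits the passage of water and solutes. In many roots it is a property of the endodermis, the innermost cortical layer, which also carries the lignified Casparian strip. In tomato roots the suberized layer is the exodermis, the outermost cortical layer beneath the epidermis. Its monomers are made by elongation, reduction, oxidation and activation of fatty acids, joined to glycerol and to ferulate, exported from the cell, and assembled in the wall, under the control of MYB transcription factors.

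The 8 genes that chose the members are described first, without a test, since the choice fixes them. SlASFT, which joins ferulate to fatty acid derivatives, stood at 1953 and 2380 CPM in members of replicates 1 and 2, against 0.758 and 3.57 CPM in all other kept cells (CPM, the UMIs of a gene in the summed cells, scaled to the usual common total). A member held between 2 and 123 SlASFT UMIs, with a median of 6 in each library. The members held 86.6% of the SlASFT UMIs of replicate 1 and 92.1% of those of replicate 2.

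Elongation of the acyl chain was represented by the ketoacyl-CoA synthase genes SlKCS2b and SlKCS2a, and SlKCS2b was the gene most often seen beside SlASFT. A SlKCS2b UMI was present in 45 of 63 members (71.4%, exact 95% binomial interval 58.7% to 82.1%) and in 169 of 228 (74.1%, 67.9% to 79.7%), against 0.583% and 1.26% of other cells. SlKCS2a (Solyc09g083050) was seen in 58.7% and 57.5% of members, against 3.35% and 1.60% of other cells. SlKCS2a was the least restricted of the 8 genes in replicate 1, where members held 13.7% of its UMIs, compared with 68.1% in replicate 2.

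The acyl-CoA synthetase gene SlLACS4, which activates fatty acids, was seen in 63.5% and 59.2% of members, against 0.219% and 0.750% of other cells. The glycerol-3-phosphate acyltransferase genes SlGPAT4 and SlGPAT5, which join fatty acids to glycerol, were seen in 55.6% and 61.4% and in 41.3% and 38.6% of members. The cytochrome P450 gene SlCYP86B1, of a family that oxidizes fatty acids, was seen in 46.0% and 36.4% of members, and the reductase gene SlFAR3A, which forms fatty alcohols, in 28.6% and 28.9%. These 5 genes had a UMI in at most 1.28% of other cells. The intervals and shares cover counting error only, and at a median of 2766 and 2212.5 UMIs per member many transcripts present in a cell were not counted.

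Most members held UMIs of several of the 7 genes. Exactly 1 of the 7 was seen in 10 and 30 members, while all 7 were seen in 5 and 20 members. The members with all 7 genes held a median of 31 and 47.5 SlASFT UMIs and were deep, with medians of 12876 and 7005 UMIs. Members with 1 of the 7 held a median of 5 and 3 SlASFT UMIs, with medians of 2477 and 1316 UMIs.

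**Figure D1:**
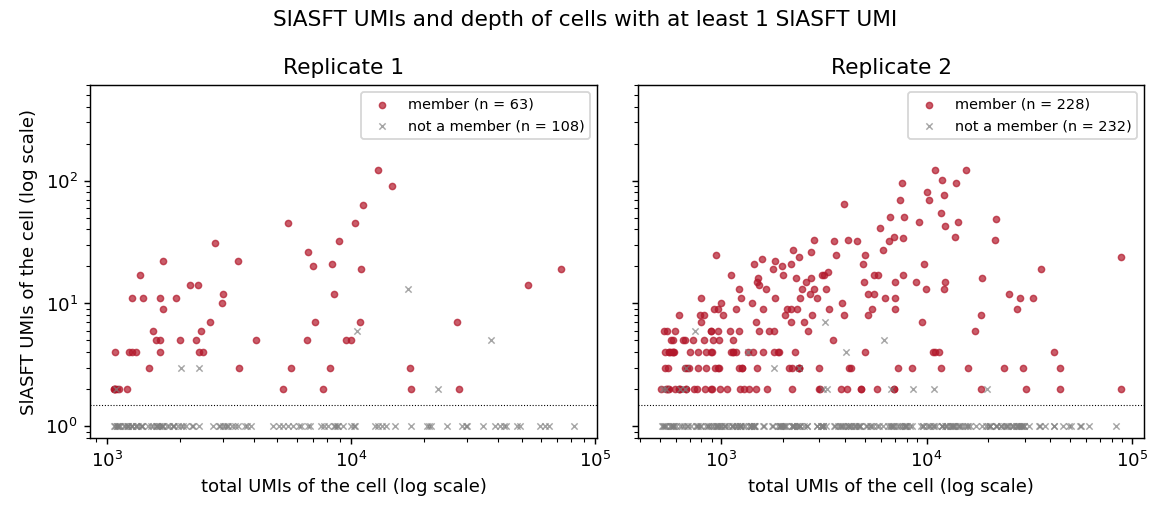
Each point is 1 kept cell with at least 1 SlASFT UMI, with its total UMIs on the horizontal axis and its SlASFT UMIs on the vertical axis, both on log scales, for each library. Filled red points are the 63 and 228 members, grey crosses are cells that missed the rule, and the dotted line separates 1 from 2 UMIs. Members reach 123 SlASFT UMIs in both libraries and occur across the whole range of depth.

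The share of kept cells that were members differed between the libraries. It was 0.508% in replicate 1 (exact 95% interval 0.391% to 0.649%) and 2.23% in replicate 2 (1.95% to 2.53%), a 4.39-fold difference between replicates of 1 group. The mean share was 1.37% ± 1.22 (SD, n = 2). Members were shallower than the library around them, at 0.343 and 0.582 of the median depth of kept cells, which was 8068 UMIs in replicate 1 and 3801 UMIs in replicate 2. The number of transcripts recovered and the number of such cells in the root cannot be told apart from these shares.

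The values at the edge of the rule are given as a description. Just inside it were 11 and 37 members with exactly 2 SlASFT UMIs, in which a median of 1.44% and 2.18% of the UMIs came from the 79 suberin-related genes listed below, none of which chose the cells. In members with 3 or more SlASFT UMIs these medians were 4.92% and 4.86%. Just outside were 14 and 54 cells with 1 SlASFT UMI and a UMI of the 7 genes, with medians of 1.14% and 1.33%, close to those of the members with 2 UMIs. The 87 and 160 cells with 1 SlASFT UMI alone had medians of 0.0449% and 0.0863%, near the 0.0388% and 0.0672% of cells with none. A further 7 and 18 cells held 2 or more SlASFT UMIs but none of the 7 genes.

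Some members were deep cells that held little of the suberin programme. Above the 95th percentile of depth of their library lay 1 member of replicate 1, with 15.7% of all member UMIs, and 8 members of replicate 2, with 29.7%. The listed genes took 0.404% of the UMIs in that 1 cell and a median of 0.223% in those 8, against medians of 4.1% and 4.8% in the remaining members. Doublets, barcodes that cover more than 1 cell, were not removed, and whether these 9 cells were doublets was not tested. Counts of called genes without such deep cells are given beside each comparison.

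The next question was which other genes were transcribed in members. UMI counts were summed per library over members and over all other kept cells and compared with the library as a block. Of 17446 genes tested, the 8 selecting genes aside, 1179 were higher in members (6.76%) and 899 were lower (5.15%) at an adjusted p under 0.05. With cells above the 95th percentile of depth left out of both populations, 1339 were higher and 1594 lower. With deep cells left out of members alone, 1596 were higher and 1858 lower, and without the library block 351 were higher and 34 lower. The median log2 fold change over all genes tested was -0.12.

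To see what these genes do, 10 lists were drawn up of genes whose annotation or name in the study links them to suberin, its export, wall assembly or its control, holding 79 genes among the genes used. All but 1 of the 79 come from lists of the study. Of them, 62 belong to a co-expression module that the study built on bulk samples, and 34 belong to the late exodermal genes that the study picked from these same libraries, whose direction is therefore not independent evidence. Of the 77 that could be tested, 73 were higher in members and none was lower, with a median log2 fold change of 7.90. All 34 late exodermal genes were higher (median 8.85), and so were 39 of the 43 others (median 6.33). Many of the 77 were nearly absent from other cells and passed the filter on low counts, applied before testing, only through members. Such genes could be called higher, not pass or go untested, but not be called lower, so their direction is a description. A median of 51.6% and 69.9% of the UMIs of the 77 genes lay in members, which were 0.508% and 2.23% of the cells.

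**Figure D2:**
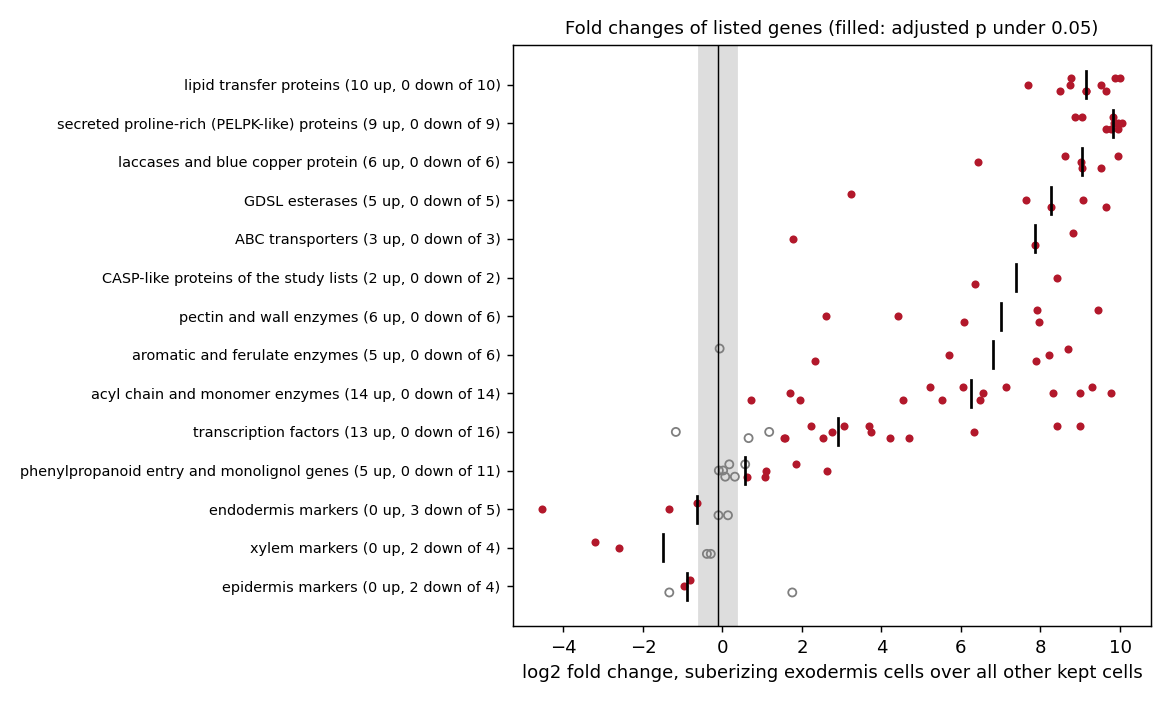
Log2 fold changes of listed genes between suberizing exodermis cells and all other kept cells, 1 point per gene and 1 row per list, with filled red points for an adjusted p under 0.05 and open grey points otherwise. Black bars mark the median of each list, the grey band and thin line the middle 50% and the median (-0.12) of all 17446 genes tested. The 10 lipid transfer protein genes all lie above 7.6, whereas the phenylpropanoid genes lie between -0.09 and 2.63. The endodermis, xylem and epidermis marker lists have medians of -0.65, -1.50 and -0.89.

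Among the enzymes of the acyl chain and the monomers, all 14 tested genes were higher in members, with a median log2 fold change of 6.26. The most changed was a cytochrome P450 gene, Solyc06g076800, at 92.1 and 308 CPM in members against 0.0955 and 0.358 CPM in other cells (log2 fold change 9.78, SE 0.31, adjusted p = 2.5e-205). A further ketoacyl-CoA synthase gene, Solyc10g009240, stood at 218 and 465 CPM in members, against 0.101 and 1.49 CPM in other cells (9.30, SE 0.29, adjusted p = 1.7e-218). The summed members of both libraries lay above the other cells in both genes, although a UMI of Solyc06g076800 was seen in only 12.7% and 17.5% of members and one of Solyc10g009240 in 49.2% and 66.7%.

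The fatty acyl-CoA reductase gene Solyc11g067180, an enzyme class that makes the primary alcohols of suberin, was seen at 20.2 and 36.3 CPM in members, against 0.0112 and 0.119 CPM in other cells (log2 fold change 8.99, SE 0.85). SlCYP86A (Solyc01g094750), a cytochrome P450 gene of the study's suberin set, stood at 18.0 and 30.3 CPM in members against 0.202 and 0.332 CPM in other cells (6.47, SE 0.75, adjusted p = 4.9e-16). SlCYP86A was thinly sampled, with a UMI in 12.7% and 13.6% of members. SlFAR3B was not analysed here.

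The 3 smallest changes of the list were the following. A 3-hydroxyacyl-CoA dehydratase gene of chain elongation, Solyc04g014370, stood at 276 and 416 CPM in members against 104 and 103 CPM in other cells (log2 fold change 1.70, SE 0.21). An aldehyde dehydrogenase gene, Solyc06g060250, stood at 189 and 253 CPM against 46.9 and 65.8 CPM (1.95, SE 0.21). The smallest was in the cytochrome P450 gene Solyc07g062500, at 94.4 and 153 CPM in members and 56.2 and 91.9 CPM in other cells (0.72, SE 0.22, adjusted p = 0.01). Most of the transcripts of these 3 genes lay outside the members, which held at most 6.64% of them.

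Of 6 tested enzymes of the aromatic part, 5 were higher in members. A peroxidase gene, Solyc06g050440, of a class that couples phenolics in the wall, stood at 631 and 870 CPM in members against 1.02 and 2.93 CPM in other cells (log2 fold change 8.70, SE 0.29). An acyltransferase-type gene, Solyc08g078030, stood at 49.4 and 115 CPM against 0.168 and 0.372 CPM (8.21, SE 0.36). A gene that the study's lists annotate both as 4-coumarate:CoA ligase and as a ribosomal protein family member, Solyc07g008360, stood at 62.9 and 54.5 CPM against 0.0674 and 0.544 CPM (7.89, SE 0.46). The exception was Solyc11g011340, annotated as ELI3, at 58.4 and 82.5 CPM in members and 76.4 and 73.0 CPM in other cells (-0.07, SE 0.23, adjusted p = 0.93).

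General phenylpropanoid genes, which supply coumarate, ferulate and monolignols to many cell types, showed a weaker pattern. Of 11 tested, 5 were higher in members and none was lower, with a median log2 fold change of 0.57. Members held no more than 8.43% of the UMIs of any of the 11. Without the library block 1 of the 11 was called.

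Export from the cell was represented by ATP-binding cassette transporters and lipid transfer proteins. SlABCG2 (Solyc05g054890), a half-size transporter gene of the class that carries suberin monomers, stood at 288 and 386 CPM in members against 0.606 and 2.92 CPM in other cells (log2 fold change 7.86, SE 0.27), and 37 of 63 and 141 of 228 members held a UMI. A further transporter gene, Solyc11g009100, stood at 13.5 and 44.6 CPM against 0.00562 and 0.146 CPM in other cells (8.83, SE 0.82). The remaining one tested, Solyc06g074940 (1.77, SE 0.45, adjusted p = 0.0013), rested on replicate 2, where it stood at 40.1 CPM in members and 9.29 CPM in other cells. In replicate 1 it stood at 2.25 CPM, a single UMI, in members and 2.72 CPM in other cells.

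All 10 lipid transfer protein genes tested were higher, with a median log2 fold change of 9.15. These small secreted proteins bind lipids and are thought to carry monomers through the wall. Solyc09g065430 stood at 5719 and 4704 CPM in members against 12.7 and 47.7 CPM in other cells and was seen in 98.4% and 98.2% of members (log2 fold change 7.69, SE 0.33). SlLTPG5 (Solyc09g065420) stood at 3769 and 2084 CPM against 1.76 and 6.44 CPM (9.65, SE 0.34). The most changed of the list, Solyc09g065440, stood at 121 and 406 CPM against 0.0562 and 0.571 CPM (9.99, SE 0.30, adjusted p = 4.2e-227). These 3 genes and Solyc09g065410 follow each other by identifier, so reads of near-identical copies may have been shared between them and single values are uncertain.

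Genes of assembly and of the wall followed the same direction. All 5 GDSL esterase genes, a family that includes suberin polymerases and hydrolases, were higher in members. Among them Solyc02g090210 stood at 148 and 279 CPM in members against 0.0786 and 0.571 CPM in other cells (log2 fold change 9.65, SE 0.30), and SlGELP38 (Solyc03g115960) stood at 42.7 and 71.9 CPM against 0.101 and 0.544 CPM (7.64, SE 0.43).

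The secreted proline-rich proteins formed the list with the highest median log2 fold change, 9.83, and all 9 tested were higher in members. Solyc07g017980, annotated as a secreted peptide, had the largest change of all genes named here, at 324 and 528 CPM in members against 0.101 and 1.01 CPM in other cells (10.04, SE 0.30, adjusted p = 1.4e-234). Solyc04g014330 was seen in 96.8% and 92.5% of members, at 1737 and 2103 CPM against 0.949 and 5.50 CPM (9.64, SE 0.33). Its neighbour Solyc04g014320 stood at 1737 and 1767 CPM against 0.764 and 4.37 CPM (9.83, SE 0.33), and the counts of such neighbours share the uncertainty named above.

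All 6 laccase and blue copper protein genes, copper enzymes and carriers linked to oxidation of wall phenolics, were higher. The laccase gene Solyc05g052370 stood at 982 and 626 CPM in members against 0.326 and 1.66 CPM in other cells (log2 fold change 9.94, SE 0.31). The blue copper protein gene Solyc05g054900 stood at 254 and 309 CPM against 0.129 and 0.823 CPM (9.53, SE 0.29). All 6 tested pectin and wall enzyme genes were higher as well, led by the pectin lyase-like gene Solyc12g019230 at 126 and 90.0 CPM against 0.0562 and 0.305 CPM (9.44, SE 0.34). The weakest of them, a glucan endo-1,3-beta-glucosidase gene (Solyc12g014420), stood at 191 and 238 CPM against 27.7 and 42.2 CPM (2.61, SE 0.21).

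CASP-like proteins are relatives of the membrane scaffold that places the Casparian strip. Both CASP-like genes of the study's lists were higher in members. Solyc02g078250 stood at 373 and 528 CPM against 0.657 and 2.36 CPM in other cells and was seen in 77.8% and 68.0% of members (log2 fold change 8.41, SE 0.28). Solyc02g069730 stood at 11.2 and 126 CPM against 0.444 and 0.996 CPM (6.36, SE 0.38), so its level differed between the libraries.

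The 15 most raised genes by the naming rule, which asked for at least 100 CPM in members of both libraries, were all members of these lists. They comprised 6 proline-rich protein genes, 5 lipid transfer protein genes, the laccase and blue copper protein genes just named, a GDSL esterase gene and a ketoacyl-CoA synthase gene. Of the 15, 11 belonged to the bulk module and 12 to the late exodermal genes, which the study picked from these same libraries. The lists were also drawn up with earlier results of these data known. The overlap of the 15 with the lists is therefore a description and not independent evidence. None of the 10 most lowered genes belonged to any list, and no annotation was at hand for them. The first, Solyc03g019690, stood at 6.74 and 19.7 CPM in members against 101 and 201 CPM in other cells (log2 fold change -3.45, SE 0.29, adjusted p = 3.4e-30). The next, Solyc01g109390, stood at 33.7 and 28.7 CPM against 200 and 190 CPM (-2.68, SE 0.25).

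Transcription factor genes were the next group, and 13 of 16 tested were higher in members, with a median log2 fold change of 2.92. Without the library block 7 of the 16 were called. SlMYB92 (Solyc05g051550), a regulator of suberin genes, had the largest change, at 6.74 and 21.2 CPM in members against 0.0112 and 0.0398 CPM in other cells (8.98, SE 1.18, adjusted p = 1.4e-12). It rested on 3 and 28 UMIs in members, against 2 and 3 UMIs in other cells. At that level in other cells, SlMYB92 passed the filter on low counts only through members. A gene so rare could be called higher or go untested, but not be called lower, so its direction is a description. The same holds for other listed genes at such levels in other cells.

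By cells, a SlMYB92 UMI was seen in 3 of 63 members (4.76%, exact 95% interval 0.993% to 13.3%) and in 20 of 228 (8.77%, 5.44% to 13.2%). In cells with UMIs of at least 2 different xylem markers, taken as background, it was seen in 1 of 490 and 0 of 298 cells, although these had median depths of 20133.5 and 11124.5 UMIs. The count of 0 allows a share of cells with a UMI of up to 1.01%, taking 3 counts as the limit that a count of 0 allows here and below. With each cell thinned to 1000 UMIs, a depth that 63 of 63 and 166 of 228 members reached, SlMYB92 was seen in 3.17% and 5.42% of members and in none of the xylem-marker cells. The members with SlMYB92 held a median of 14 SlASFT UMIs in both libraries, those with SlMYB41 19 and 12.5, and those with Solyc11g032100 22 and 17, against 6 over all members, and the part of cell depth in this was not tested.

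SlMYB41 (Solyc02g079280), a related regulator, was higher in members but not restricted to them, at 22.5 and 35.6 CPM against 1.16 and 3.44 CPM in other cells (log2 fold change 3.69, SE 0.50, adjusted p = 7.2e-12). It was seen in 7 of 63 and 22 of 228 members, and these held 4.63% and 15.4% of its UMIs. SlMYB41 and SlMYB92 were seen in the same member in 1 cell of each library, among the 7 and 22 members with SlMYB41 and the 3 and 20 with SlMYB92. At this depth the presence of both factors in 1 cell could rarely be seen. SlMYB63 (Solyc10g005550) was seen in 0 of 63 and 0 of 228 members, which allows a share of members with a UMI, not of members expressing the gene, of up to 4.76% and 1.32%, and its 4 and 7 UMIs in other cells were too few to test.

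Further factor genes were higher in members. Solyc11g032100, annotated as Tomato AGAMOUS 12 and thus a MADS-box factor, stood at 78.7 and 114 CPM in members against 2.48 and 8.84 CPM in other cells (log2 fold change 4.21, SE 0.27, adjusted p = 4.2e-53). It was seen in 12 of 63 and 62 of 228 members, and in 26 of 490 and 17 of 298 of the deeper xylem-marker cells. Solyc07g054840, an R2R3 MYB gene distinct from SlMYB41 although the study's list annotates it with the number 41, stood at 31.5 and 56.7 CPM against 0.292 and 0.836 CPM (6.33, SE 0.50). Solyc04g056310, a MYB gene, stood at 22.5 and 12.9 CPM against 0.0168 and 0.0929 CPM (8.43, SE 1.00).

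The factor genes that did not pass were WRKY8 (Solyc02g093050), the homeobox gene Solyc03g082550 and the LOB domain gene Solyc04g077990. WRKY8 stood at 18.0 and 64.3 CPM in members and 20.4 and 31.8 CPM in other cells (0.66, SE 0.28, adjusted p = 0.12). Solyc04g077990 stood at 0 and 12.1 CPM in members and 7.99 and 23.2 CPM in other cells (-1.17, SE 0.45, adjusted p = 0.074). Solyc03g082550 held 2 UMIs in members.

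The bulk co-expression module, built by the study on other samples, was then read as a whole in members. Of its 173 genes outside the rule, 155 were among the genes counted and 138 could be tested, of which 103 were higher in members, 1 was lower and 34 did not pass, with a median log2 fold change of 4.64. The background shares were 6.76% higher and 5.15% lower. The lower one was Solyc02g089690, a trichome birefringence-like gene, with 0 and 1 UMI in members against 4.82 and 6.80 CPM in other cells. Module genes nearly absent from other cells could not be called lower.

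Several module genes outside the 10 lists are named here after their values were seen. An alpha-amylase inhibitor gene, Solyc03g005210, stood at 883 and 710 CPM in members against 1.19 and 4.55 CPM in other cells (log2 fold change 8.35, SE 0.29). A Rossmann-fold protein gene, Solyc09g010510, stood at 137 and 47.7 CPM against 0.0786 and 0.212 CPM (9.33, SE 0.39). A nucleobase-ascorbate transporter gene, Solyc01g106920, stood at 47.2 and 114 CPM against 0.0281 and 0.305 CPM (9.17, SE 0.39). Among stress and hormone related members, a protein phosphatase 2C gene (Solyc03g096670), of a family that includes repressors of abscisic acid signalling, stood at 146 and 315 CPM against 10.1 and 65.1 CPM (2.95, SE 0.22). A dehydrin gene (Solyc02g062390) stood at 20.2 and 62.0 CPM against 0.46 and 3.85 CPM (4.44, SE 0.44). Genes of the module that did not pass included a glutathione S-transferase gene, Solyc06g009020, at 1461 and 1685 CPM in members and 1320 and 1552 CPM in other cells (0.10, SE 0.23), and a histone H2A gene, Solyc09g065755, at 623 and 561 CPM in members and 916 and 641 CPM in other cells (-0.40, SE 0.22).

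Markers of other root cell types were checked in the members. None of those tested was higher. Of 5 endodermis markers 3 were lower, among them SlCASP1 (Solyc06g074230), a Casparian strip scaffold gene, at 6.74 and 44.6 CPM in members against 27.2 and 105 CPM in other cells (log2 fold change -1.35, SE 0.29). SlCASP2 (Solyc10g083250) held 0 and 1 UMI in members. SlCASP3 (Solyc09g010200) differed between the libraries, at 85.4 and 79.4 CPM in members against 65.2 and 206 CPM in other cells (-0.65, SE 0.23, adjusted p = 0.040), so that in replicate 1 it was higher in members. The 5 endodermis markers summed to 96.6 and 131 CPM in members against 99.0 and 334 CPM in other cells, a population that includes the endodermis itself. At least 1 of their UMIs was seen in 12 and 42 members (19.0% and 18.4%), compared with 13.9% and 14.97% of the deeper other cells, and the part of these UMIs in the results was not tested.

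None of the tested vascular markers passed as higher in members. The 4 xylem markers summed to 126 and 134 CPM in members against 178 and 195 CPM in other cells, and most of this came from Solyc01g087210, at 121 and 117 CPM in members and 154 and 153 CPM in other cells (-0.39, SE 0.21, adjusted p = 0.30). IRX5 (Solyc09g072820), of cellulose synthesis, did not pass either (-0.29, SE 0.48). The xylem markers IRX1 (Solyc02g072240) and XCP2 (Solyc04g082710), of cellulose synthesis and of programmed cell death in vessels, were at 0 in members of replicate 1 and at 2.27 CPM each in replicate 2, against 5.86 and 11.7 CPM and 10.3 and 17.1 CPM in other cells, and both passed as lower. The phloem regulator APL (Solyc12g017370) held 0 and 1 UMI in members, and the 2 phloem markers summed to 6.74 and 10.6 CPM in members and 5.81 and 23.3 CPM in other cells. The epidermis markers, mostly nutrient transporters, summed to 83.2 and 105 CPM in members against 108 and 211 CPM in other cells. The ammonium transporter gene SlAMT1 and the phosphate transporter gene SlPT1 were lower (-0.83, SE 0.24, and -0.96, SE 0.28). Solyc02g069200 went the other way without passing, at 13.5 and 0.756 CPM in members against 1.42 and 1.25 CPM in other cells (1.76, SE 0.95). Solyc12g005670 did not pass either (-1.34, SE 1.63). The cortex marker SlPEP and the 2 tested markers of dividing cells did not pass. Without the library block none of the markers was called, and with DESeq2 1 endodermis, 1 xylem and 0 epidermis markers were called lower. Genes induced by protoplasting, which were kept out of the tests, made up 3.60% and 3.77% of the UMIs of members against 4.58% and 5.58% of those of other cells.

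**Figure D3:**
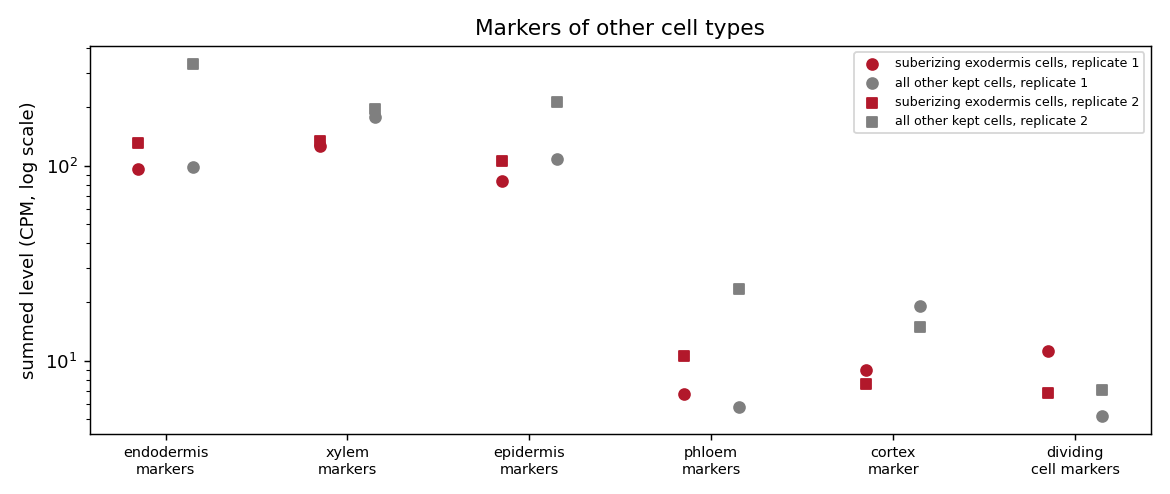
Summed level of the markers of 6 other root cell types, in CPM on a log scale, with red for suberizing exodermis cells, grey for all other kept cells, circles for replicate 1 and squares for replicate 2. The endodermis markers stand at 96.6 and 131 CPM in suberizing exodermis cells and at 99.0 and 334 CPM in the others.

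The label of these cells could be checked only in part. Its given markers SlASFT, SlKCS2b and SlLACS4 are among the genes that chose the cells, and the other exodermis genes at hand are suberin genes. The cells were chosen for transcripts of SlASFT and of a second suberin gene, so that joint transcription was fixed by the choice. In the summed members most tested suberin-related genes outside the rule were higher, and no tested endodermis, vascular or epidermis marker passed as higher. The position of these cells in the root was not measured.

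Members were further compared with 2 other populations in 1 model. The first was 614 and 623 endodermis-marker cells, with at least 2 UMIs over the 5 endodermis markers, the other barrier layer of the root. The second was 86 and 96 cells with a SlMYB41 UMI, no SlASFT UMI and fewer than 2 endodermis UMIs. Their median depths were 18988.5 and 6711 UMIs and 13468 and 8771 UMIs, deeper than the 2766 and 2212.5 UMIs of members. Genes that chose either side have no test.

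Against endodermis-marker cells, 798 of 10901 tested genes were higher in members (7.32%) and 560 were lower (5.14%), without deep cells 989 were higher and 677 lower, and without the library block 358 were higher and 131 lower. Of 71 suberin-related genes tested, 68 were higher and none was lower, with a median log2 fold change of 7.38 against -0.01 over all genes. The 31 late exodermal genes among the 71, picked by the study from these same libraries, were all higher (median 8.28). So were 37 of the 40 others (median 6.35). Many of the 71 were at or near 0 in endodermis-marker cells. Such genes could be called higher, not pass or go untested, but not be called lower, so their direction is a description. The 68 included all tested acyl chain enzymes (14), lipid transfer proteins (10), proline-rich proteins (8), laccase and blue copper proteins (6) and GDSL esterases (5). The smallest change that passed was in the glucanase gene Solyc12g014420, at 191 and 238 CPM in members against 73.1 and 139 CPM in endodermis-marker cells (1.04, SE 0.20, adjusted p = 0.0068).

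The lipid transfer protein gene Solyc09g065430 was also counted in endodermis-marker cells. It stood at 5719 and 4704 CPM in members and at 78.0 and 260 CPM in endodermis-marker cells, above the 12.7 and 47.7 CPM of all other kept cells (members over endodermis-marker cells 5.31, SE 0.57, adjusted p = 1.8e-04). Of the general phenylpropanoid genes, 2 of 11 were higher in members than in endodermis-marker cells and the other 9 did not pass. The O-methyltransferase gene Solyc03g080180 stood at 303 and 284 CPM in members against 73.9 and 109 CPM in endodermis-marker cells (1.68, SE 0.21).

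The second comparison was with the SlMYB41 cells. Against them 933 of 10900 tested genes were higher in members (8.56%) and 855 lower (7.84%), without deep cells 739 were higher, 637 of them among the 933, and 802 lower, and without the library block 190 were higher and 112 lower. SlMYB41 cells were chosen to hold a SlMYB41 UMI and no SlASFT UMI, and members to hold at least 2 SlASFT UMIs. The direction of genes transcribed together with SlASFT or with SlMYB41, higher or lower, thus follows in part from that choice. Of 70 suberin-related genes tested, 62 were higher in members and 4 lower, with a median log2 fold change of 6.91. The 31 tested late exodermal genes among them were all higher, and of the 39 others 31 were higher and 4 lower.

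The 4 lower ones were higher in SlMYB41 cells, and without the library block 1 of them was called. WRKY8 stood at 18.0 and 64.3 CPM in members against 338 and 260 CPM in SlMYB41 cells (log2 fold change -2.58, SE 0.37, adjusted p = 0.0016). An ethylene-responsive factor gene, Solyc04g071770, stood at 38.2 and 116 CPM against 128 and 421 CPM (-1.73, SE 0.24, adjusted p = 0.0014). The transporter gene Solyc06g074940 stood at 2.25 and 40.1 CPM against 35.6 and 121 CPM (-1.66, SE 0.37), and ELI3 (Solyc11g011340) at 58.4 and 82.5 CPM against 128 and 260 CPM (-1.27, SE 0.31). The SlMYB41 level itself, which chose these cells, was 22.5 and 35.6 CPM in members and 112 and 211 CPM in SlMYB41 cells.

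Of the 116 bulk module genes tested in this comparison, 74 were higher in members and 10 lower. Besides the 4 just named, the lower ones included a serine/threonine kinase gene, Solyc06g082440, at 247 and 454 CPM in members (-1.38, adjusted p = 6.8e-04), and an ABA-responsive-like gene, Solyc08g078510, at 524 and 838 CPM (-0.79, adjusted p = 0.016). The phosphatase 2C gene Solyc03g096670 (0.29, SE 0.29) and the dehydrin gene (0.60, SE 0.33) did not pass. SlMYB41 cells held no SlMYB92 UMI in 86 and 96 cells, which allows a share of cells with a UMI of up to 3.49% and 3.13%. The listed genes took a median of 4.07% and 4.60% of the UMIs of members, against 0.131% and 0.220% of those of SlMYB41 cells.

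**Figure D4:**
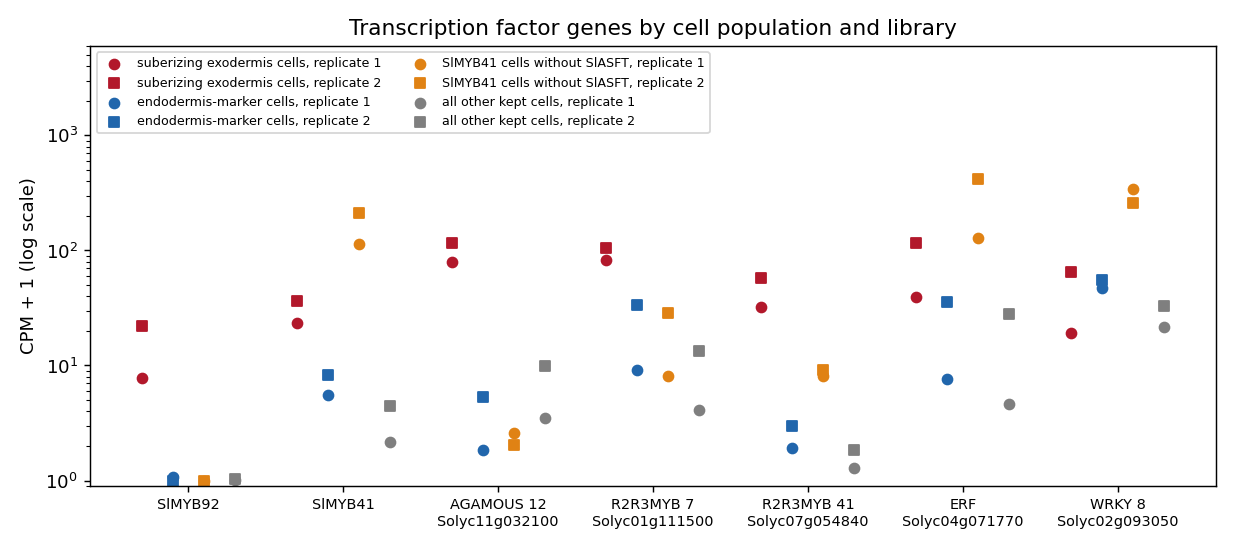
Level of 7 transcription factor genes in CPM plus 1 on a log scale, in suberizing exodermis cells (red), endodermis-marker cells (blue), SlMYB41 cells without SlASFT (orange) and all other kept cells (grey), with circles for replicate 1 and squares for replicate 2. SlMYB92 stands at 6.74 and 21.2 CPM in suberizing exodermis cells and at or near 0 elsewhere, whereas WRKY8 and the ethylene-responsive factor gene are highest in SlMYB41 cells, which SlMYB41 itself defined.

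How the programme varied with SlASFT was described over classes of SlASFT UMIs among all kept cells. The summed level of the 79 listed genes was 443 and 758 CPM in cells of replicates 1 and 2 with 0 SlASFT UMIs, and 751 and 1604 CPM in cells with 1. It was 13934 and 9359 CPM in cells with 2 to 4, 14163 and 30488 CPM with 5 to 9, and 33049 and 44575 CPM with 10 or more. As a ratio between neighbouring classes, in both libraries the step between cells with 1 and cells with 2 to 4 SlASFT UMIs was larger than any later one. Deeper cells reach a class more easily, and the median depth was 1654 and 1343 UMIs in the class of 2 to 4 and 6069.5 and 4963 UMIs in that of 10 or more.

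Members alone were also divided by the SlASFT share of their UMIs. In the lowest, middle and top tertile of members the listed genes stood at 10371, 36981 and 73633 CPM in replicate 1 and at 10682, 53546 and 87886 CPM in replicate 2. The lowest tertile held the deepest cells, with medians of 8190 and 5641.5 UMIs, against 2362 and 1469 UMIs in the top tertile. The endodermis markers ran the other way, at 128, 37.7 and 31.4 CPM over the tertiles of replicate 1 and 161, 96.0 and 33.7 CPM in replicate 2. Whether those UMIs came from the same cells was not tested.

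Lipid transfer proteins alone took 16893 and 19497 CPM in cells with 10 or more SlASFT UMIs, and the proline-rich proteins took 8560 and 11926 CPM. Solyc11g032100 was at 22.0 and 33.2 CPM in cells with 2 to 4 SlASFT UMIs and at 114 and 172 CPM in cells with 10 or more. SlMYB92 was at 0 and 5.25 CPM in cells with 2 to 4, at 0 and 32.9 CPM with 5 to 9, and at 11.4 and 29.9 CPM with 10 or more, on 3 and 20 UMIs in the last class. Solyc11g032100 was at 14.8 and 138 CPM with 5 to 9.

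**Figure D5:**
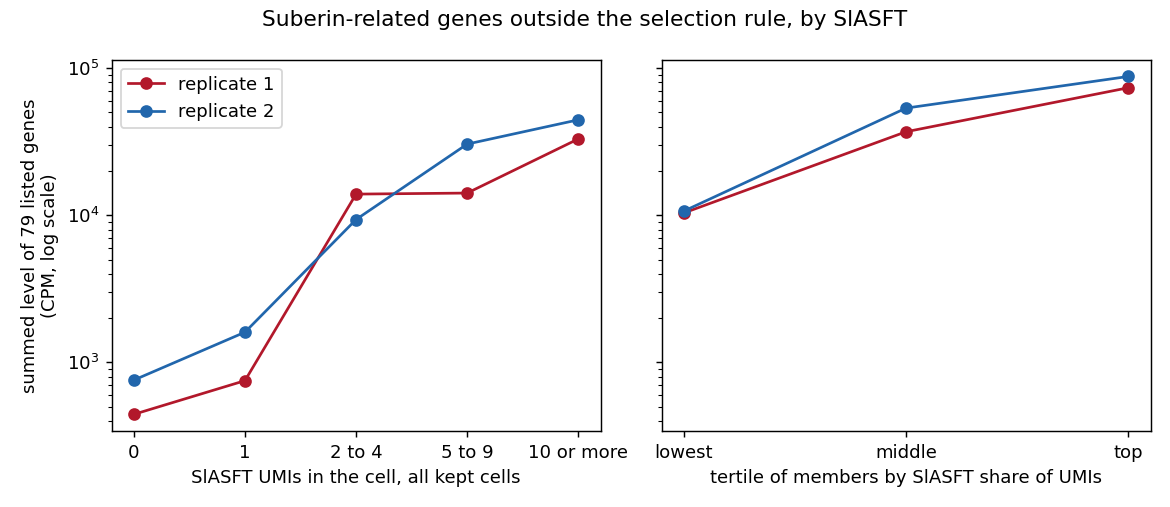
Summed level of 79 suberin-related genes that did not choose the cells, in CPM on a log scale, for all kept cells by their SlASFT UMIs (left) and for tertiles of suberizing exodermis cells by the SlASFT share of their UMIs (right), with red for replicate 1 and blue for replicate 2. The level is 443 and 758 CPM with 0 SlASFT UMIs and 73633 and 87886 CPM in the top tertile.

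From cell to cell the listed genes took between 0.103% and 18.9% of a member's UMIs in replicate 1 and between 0.0210% and 25.2% in replicate 2. More than 1% was reached by 56 of 63 and 201 of 228 members, and by 27 of 12340 and 103 of 10003 other cells. More than 5% was reached by 28 and 102 members, and by 2 and 19 other cells that the SlASFT rule did not take. Levels in members of the 2 libraries were compared over those of the 77 tested genes with a UMI in members of replicate 1. The level in replicate 2 was a median of 1.51 times that in replicate 1. Of these genes, 22 were more than 2 times higher in replicate 2 and none was more than 2 times higher in replicate 1. Solyc04g077990 and Solyc03g082550, at 0 in members of replicate 1, have no ratio.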

How the data were processed

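The authors mapped 10x Genomics reads with cellranger (6.0.1 per the file headers) to tomato genome SL4.0 with ITAG4.1 genes and organelle sequences. The deposited tables hold raw UMI counts for 34716 genes and called cells, not normalized. The authors' filters were followed: 500 UMIs, 1% organelle UMIs, no genes seen in 3 cells or fewer, none of 820 protoplasting-induced genes. This left 21682 genes. Counts were summed per library and population and tested with edgeR 4.0.16 (R 4.3.3; TMM, filterByExpr, glmQLFit, glmQLFTest, Benjamini-Hochberg over all genes, threshold 0.05). SEs were derived from the fold change and its F statistic. Library was a block because both sums come from 1 sample. The library differences of members and other cells correlated at 0.47 over 12278 genes, which are not independent replicates.

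Members and lists were chosen with earlier results of these data known. Markers of other cell types were fixed by identifier after the published plots had been seen, and their names follow those plots. Named genes passed the threshold, changed alike in each library and reached 100 CPM in the higher population (15 highest, 10 lowest), plus 5 suberin genes and up to 3 genes per list and those that went the other way. Of the listed identifiers, 12 are not analysed here. A planned search of promoters and lists by description were not run, and a gene table of another assembly was not used. The alternatives, DESeq2 1.42.0 among them, are listed with their effects in the closing section.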

Additional observations from a re-analysis of the deposited data

How the results depend on the processing

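Results were recomputed with DESeq2 size factors, the DESeq2 Wald test, no replicate block, no filter on low counts, protoplasting-induced genes kept, other limits on UMIs, organelle share and SlASFT, other choices of comparison cells, no deep members and each library left out, and, chosen after seeing the data, without deep cells in both populations. The count of 1179 genes higher in members became 351 with no replicate block, all of them among the 1179, and 833 with the DESeq2 Wald test. The 899 lower ones became 34 with no replicate block, 274 with DESeq2, 1858 without deep members and 1594 without deep cells on both sides. The number of lower genes thus depended on the model and on 9 deep cells. The suberin-related genes higher in members stayed between 64 and 74, with 1 lower when the other cells were limited to the central depth range of the members. That limit kept 10003 of 12340 and 9089 of 10003 other cells and did not match depths. The bulk module had 80 to 109 higher. Its single lower gene became 0 with DESeq2, with no replicate block and with a SlASFT minimum of 3. It became 2 with protoplasting-induced genes kept, with no second gene, with the limit on depth and without deep cells on both sides. Without deep members it became 4.

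Against endodermis-marker cells, no replicate block gave 358 higher and 131 lower genes, DESeq2 322 lower and no filter on low counts 1138 lower of 20541 tested. The module's single lower gene became 0 with DESeq2 or no replicate block and 2 with no filter. Against SlMYB41 cells, DESeq2 gave 605 higher, and no replicate block gave 190 higher and 112 lower, with 1 lower suberin-related gene and 1 lower module gene.

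Without replicate 1 or without replicate 2 there is no test. Only genes already called on both libraries were followed, a choice that favours a kept direction. In the remaining library, 1176 or 1159 of the 1179 higher genes kept their direction, and 898 or 886 of the 899 lower ones. So did 73 or 72 of the 73 suberin-related genes and 103 or 100 of the 103 module genes. All 42 late exodermal genes and the module's 1 lower gene stayed. Against endodermis-marker cells these were 798 or 793 and 560, with 68 or 67 suberin-related and 89 or 88 module genes higher and 1 module gene lower. Against SlMYB41 cells they were 933 or 932 and 855, with 62 and 74 higher and 4 and 10 lower. The transporter gene Solyc06g074940 reversed without replicate 2 (-0.20, against 2.00 without replicate 1, on the log2(CPM + 1) scale). The share of members was 2.23% without replicate 1 and 0.508% without replicate 2. Thinning to 1000 UMIs lowered the mean share of members with SlMYB41 to 3.59%. The listed genes were 3.57-fold higher in kept cells with 10 or more than in those with 2 to 4 SlASFT UMIs, and 7.66-fold higher in the top than in the lowest tertile of members. With 2 libraries and shallow members, low genes such as SlMYB63 could not be judged.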
